A study of Mus musculus with 6 samples.

Results

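The genes described here are those of the machinery that imports proteins into mitochondria, together with *Pmpcb*, the gene of the catalytic subunit of the peptidase that removes import signals. They were chosen by symbol, as every gene named Tomm or Timm followed by a digit, with *Pmpca* and *Pmpcb*. The symbols matched 28 of the 50508 genes listed, and 25 of them were above 0 in at least 1 library, among 19504 such genes in all. The group was picked because of the values of *Pmpcb* in this same comparison, so those values are given as a description without a test, and nothing below is supported by them. At the edge of the rule, *Tomm6os* and *Timm23* reached a highest value of 1, whereas *Tomm6*, *Tomm20l* and *Timm8a2* were listed at 0 in all 6 libraries.

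Primary mouse neurons were transduced with lentiviruses that carry a CRISPR activator, and RNA was profiled with a 3′ mRNA kit that reads 1 end of each transcript. The 3 Kcna1-dCas9A libraries received sg19, a guide to the promoter of *Kcna1*, which encodes the potassium channel Kv1.1, and the 3 Ctrl-dCas9A libraries received a guide to LacZ, which the mouse genome lacks. Both groups carry the same defective Cas9 fused to the VP160 activator under the Ef1alpha promoter, which is not restricted to neurons, and only the guide differs by design. The labels name hippocampus as the source, whereas the study's methods prepare neurons from the cortex of newborn C57Bl/6J mice, and the markers of both regions are above 0 here. The labels do not say that replicates came from separate cultures, so the p-values measure only the spread between these libraries, which may be technical.

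Most mitochondrial proteins are made in the cytosol and carry a signal that sends them through the TOM complex of the outer membrane. Proteins with an N-terminal presequence then pass the TIM23 complex into the matrix, where the mitochondrial processing peptidase cleaves the presequence off. Carrier proteins are instead handed by small TIM chaperones to the TIM22 complex, which inserts them into the inner membrane. The peptidase is a heterodimer in which the product of *Pmpcb* holds the zinc-dependent active site and the product of *Pmpca* binds the presequence. In neurons, whose axons and synapses depend on mitochondria, hereditary defects of either subunit are known to cause early ataxia or neurodegeneration.

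The deposited value of a gene is a whole number that appears to be scaled to a common library total and rounded. The libraries sum to between 999047 and 999717 and hold 14788 to 15417 genes above 0. The number of reads behind a value is unknown, and 1 gene, Gm42418, holds 15.3% to 20.2% of each library. *Kcna1* was 16 in each Ctrl-dCas9A library and 68, 47 and 65 in Kcna1-dCas9A replicates 1 to 3, a log2 fold change of 1.83 (SE 0.16, limma adjusted p = 0.034). In total 226 of 19504 genes (1.16%) passed an adjusted p of 0.05 in limma. This count rose to 2711 without Ctrl-dCas9A replicate 3 and was 0 when any other library was left out. With the replicate number added to the fit as a block it was also 0, and *Kcna1* did not pass (limma adjusted p = 0.111). Over the 8050 genes whose mean value was at least 10, Ctrl-dCas9A replicate 3 lay a mean root-mean-square log2 distance of 0.443 from the other libraries of its group and 0.402 from the Kcna1-dCas9A libraries, and the remaining 5 libraries were nearer to their own group. Where leaving it out changed a call, the value without it is therefore also given. That control was singled out on these same values, and dropping the control nearest the other group can widen differences. Calls that appear only without it are therefore not separate support.

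**Figure D1:**
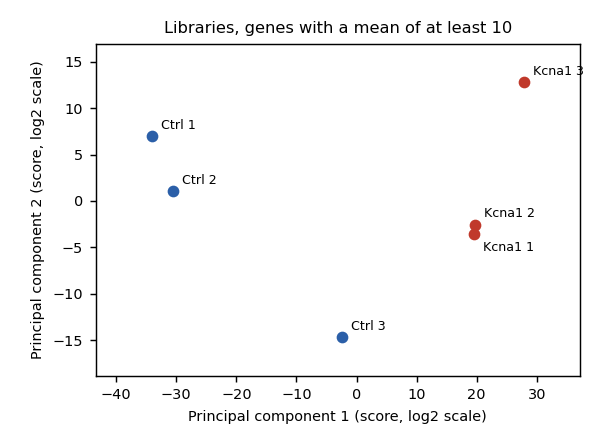
The 6 libraries placed on the first and second principal components of log2(value + 1) over 8050 genes whose mean value was at least 10, by group. Along the first component, which holds 71.6% of the variance, Ctrl-dCas9A replicate 3 sits at -2.45, between the other controls at -34.1 and -30.6 and the Kcna1-dCas9A libraries at 19.5 to 27.9.

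In Ctrl-dCas9A replicates 1 to 3 the value of *Pmpcb* was 25, 22 and 12, and in Kcna1-dCas9A replicates 1 to 3 it was 3, 1 and 2. Every Kcna1-dCas9A value lay under the lowest control value, and the groups did not overlap. The means were 19.7 ± 6.81 and 2 ± 1 (SD, n = 3 in each group), a ratio of 9.83, and the difference on the log2(value + 1) scale was -2.78 (SE 0.36). With the pseudocount of 1, no other gene among the 19504 had a lower log2 fold change. The low level of Ctrl-dCas9A replicate 3 counts in this value, which was -3.08 without that library. Because the Kcna1-dCas9A values are so small, the size depends on the pseudocount, and it was -3.29 with 0.1 and -1.95 with 4 in place of 1.

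*Pmpcb* lies on chromosome 5 at chr5:21242959-21262970 on the plus strand (NCBIM37, GENCODE vM1). A stretch of its promoter is shown because it holds a feature that the symbol rule did not use. The 8-base core CCGGAAGT, which transcription factors of the ETS family recognise, was searched on both strands from 250 bases before to 50 bases after 1 annotated start per gene (RefSeq, GRCm38.p6), and 22 of the 25 genes had such a promoter. It was present in 6 of them, against 4.0% of all 27025 promoters and 9.64% of the 6221 promoters of genes whose mean value was at least 10. Windows of 30 bases around each match, written in the direction of the gene, are given with the core or its reverse complement in capitals.
Pmpcb, chr5:21737133-21737162, plus strand: ggagtcatgacCCGGAAGTacatctccact
Tomm70a, chr16:57121623-57121652, plus strand: gccttctgaccCCGGAAGTggttctcccct
Timm23, chr14:32201921-32201950, minus strand: tcgcgcttcccACTTCCGGgccgcacacag
Timm29, chr9:21592498-21592527, plus strand: gagctctgaccACTTCCGGgctccactcac
Timm10, chr2:84827026-84827055, plus strand: tagacttccttCCGGAAGTgacccacgtgc
Timm10b, chr7:105640465-105640494, plus strand: gagtagtgagagtttACTTCCGGggcgact

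The core of *Pmpcb* begins 16 bases before the start, that of *Timm23* 48 bases before, that of *Tomm70a* 80 bases before and that of *Timm29* 213 bases before, whereas those of *Timm10* and *Timm10b* begin 16 and 35 bases after it. The 6 genes did not share a direction between the groups. *Pmpcb*, *Tomm70a* and *Timm29* had negative log2 fold changes, *Timm10b* a positive one of 0.55, and *Timm10* and *Timm23* values of 0.0097 and 0. The palindrome bound by NRF1 was in 0.977% of all promoters and 2.30% of the 6221. The cyclic AMP response element TGACGTCA was in 1.88% and 3.73%. Neither was present in the 22 promoters of the import genes, which says little at such low shares. A match is a string of letters and does not show that a factor binds there.

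*Pmpca*, the partner subunit on chromosome 2 (chr2:26244859-26252642, plus strand, NCBIM37), was listed at 20, 20 and 25 in the controls and at 17, 14 and 18 with the *Kcna1* guide. The groups did not overlap, although the highest Kcna1-dCas9A value and the lowest control value are close. Its log2 fold change was -0.39 (SE 0.16, limma adjusted p = 0.216), and without Ctrl-dCas9A replicate 3 it was -0.28 (adjusted p = 0.275). The value of *Pmpcb* divided by that of *Pmpca* was 1.25, 1.10 and 0.480 in the controls and 0.176, 0.0714 and 0.111 with the *Kcna1* guide. The span of *Pmpca* overlaps that of *Inpp5e* in RefSeq, and the counting is not stated to use strand, so reads of the 2 genes may be shared.

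The genes beside *Pmpcb* did not show a change of that size. *Dnajc2*, a ribosome-associated cochaperone, lies tail to tail with *Pmpcb*, on the minus strand with a gap of 114 bp, so that both genes place the ends this kit reads close together. It was listed at 145, 125 and 150 in the controls and at 171, 169 and 152 with the *Kcna1* guide, a log2 fold change of 0.23 (SE 0.11, limma adjusted p = 0.252). All its Kcna1-dCas9A values were above the controls. Behind it, *Psmc2*, a subunit of the proteasome cap, had 66, 61 and 65 against 47, 49 and 42 (log2 fold change -0.47, SE 0.11, limma adjusted p = 0.056). On the other side, *Armc10*, whose product sits in the mitochondrial outer membrane, had 39, 40 and 37 against 25, 26 and 25 (log2 fold change -0.59, SE 0.11, limma adjusted p = 0.053).

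Both of these genes sat below the controls in every library, and *Armc10* passed the threshold without Ctrl-dCas9A replicate 3 (adjusted p = 0.022), whereas *Psmc2* did not (0.051). *Napepld*, the nearest gene before *Pmpcb* and an enzyme of N-acylethanolamine synthesis, did not exceed 2 in any library. A pseudogene within the span of *Pmpcb* on the opposite strand, Gm15715, was listed at 0 throughout, as was Gm15719, a pseudogene within the span of *Napepld*.

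**Figure D2:**
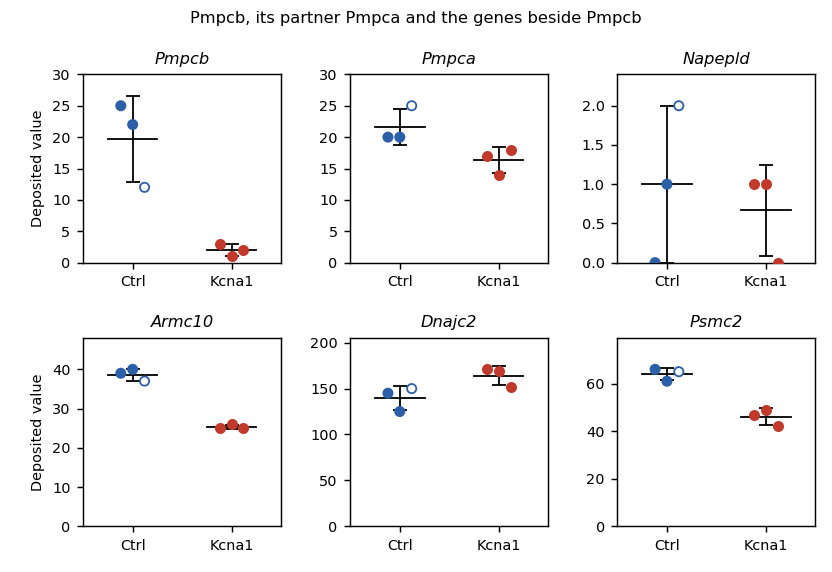
Deposited value, scaled to a common total and rounded, of *Pmpcb*, its partner *Pmpca* and the genes beside *Pmpcb* in the 6 libraries, with bars at the mean ± SD of 3 libraries, axes from 0, and Ctrl-dCas9A replicate 3 drawn as an open point. *Pmpcb* lies at 12 to 25 in the controls and 1 to 3 in Kcna1-dCas9A, while *Dnajc2* is at 125 to 150 against 152 to 171.

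Of the 24 import genes other than *Pmpcb*, 0 passed an adjusted p of 0.05 in limma, against 1.16% of all genes (0.349% higher and 0.810% lower) and 2.10% of those at a mean value of 10 or more, and the lowest adjusted p was 0.056. At an unadjusted p under 0.05 there were 6, 5 lower and 1 higher in Kcna1-dCas9A, against 23.2% of all genes (13.6% lower and 9.59% higher). The groups did not overlap for 7 of the 24, against 22.2% of all genes, and all 7 were among the 19 with a mean value of at least 10, where 39.8% of genes did not overlap. Log2 fold changes ran from -0.66 to 0.55, with 14 below 0, 8 above and 2 at 0. Their median was -0.15, against -0.02 over all genes, and for the 19 it was -0.32, against -0.06 over the 8050 genes at that level. The 5th and 95th percentiles of those 8050 genes were -0.88 and 0.68, so that each of the 19 lies between them.

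Without Ctrl-dCas9A replicate 3, *Timm8b*, *Tomm22* and *Tomm70a* passed, all lower in Kcna1-dCas9A, where 14.2% of all genes passed and 8.12% passed as lower. The median of the 24 genes was then -0.31, against -0.06 over all genes, and that of the 19 was -0.28, against -0.07 over the 8050 genes. On the log2(value + 1) scale that library lay nearer to the Kcna1-dCas9A mean than to the mean of the other controls for 10 of the 19 import genes (52.6%), against 56.0% of the 8050 genes, and it did not for *Pmpcb*. Rescaling by the median of ratios or the upper quartile moved the median over the 8050 genes from -0.06 to 0.03 or 0.06. With these scalings the median of the 24 was -0.065 or -0.035, against 0.017 or 0.033 over all genes. That of the 19 was -0.23 or -0.20.

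**Figure D3:**
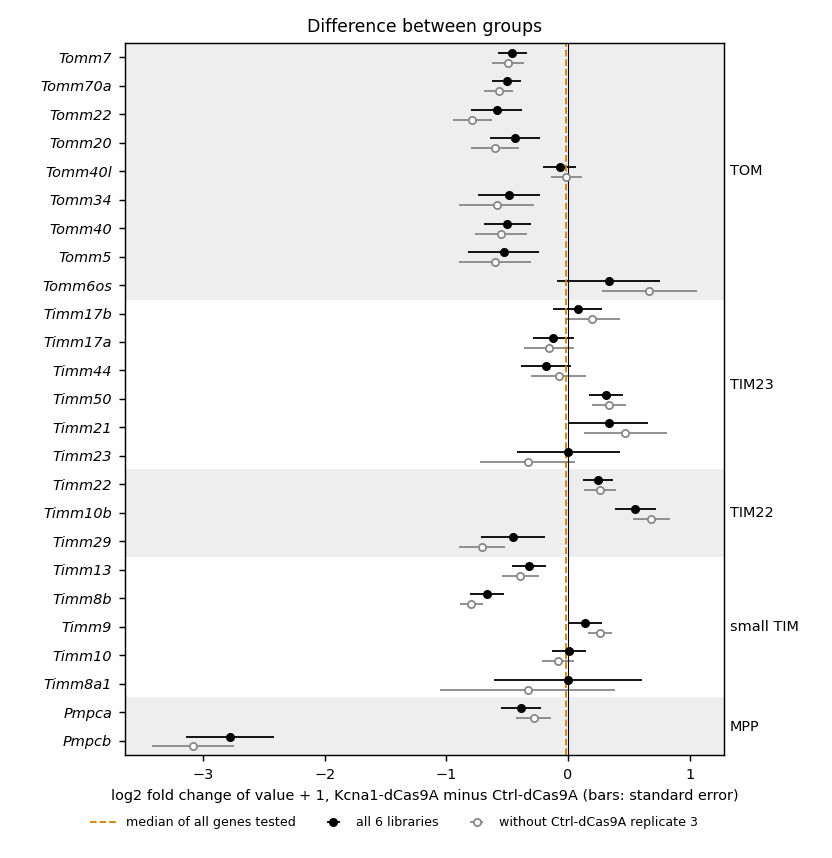
Log2 fold change with its standard error of each of the 25 import genes, Kcna1-dCas9A against Ctrl-dCas9A on the log2(value + 1) scale, by role in import. *Pmpcb* is at -2.78 and the others lie between -0.66 and 0.55.

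The 9 *Tomm* genes above 0 were grouped by name for the TOM complex, the entry gate, although *Tomm34* and *Tomm6os* among them encode no subunit of it. Of the 9, 8 had negative log2 fold changes, where 9896 of all 19504 genes and 4457 of the 8050 did. Their median was -0.49, and 0 passed the threshold in limma, with 4 lower at an unadjusted p under 0.05 against 13.6% of all genes. *Tomm40l* was one of the 8, at -0.07, and turned to 0.015 and 0.045 under the median of ratios and the upper quartile. *Tomm7*, a small subunit that shapes the complex and is needed to hold the kinase PINK1 at it, was the most abundant member (chr5:23344762-23349979, minus strand, NCBIM37). It was listed at 251, 196 and 206 in the controls and at 145, 162 and 165 with the *Kcna1* guide. The groups did not overlap, and the log2 fold change was -0.46 (SE 0.12, limma adjusted p = 0.075).

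*Tomm70a*, the receptor for carrier precursors (chr16:57121827-57156818, plus strand, NCBIM37), had 179, 172 and 153 in the controls and 126, 127 and 102 in Kcna1-dCas9A. These groups did not overlap either, with a log2 fold change of -0.51 (SE 0.12, limma adjusted p = 0.063) that was -0.57 without Ctrl-dCas9A replicate 3 (adjusted p = 0.047). *Tomm22*, the central receptor (chr15:79501291-79503292, plus strand, NCBIM37), had the lowest log2 fold change of this complex, -0.59 (SE 0.21, limma adjusted p = 0.146). Its values were 51, 53 and 34 in the controls and 28, 36 and 26 in Kcna1-dCas9A. Here 1 Kcna1-dCas9A library exceeded Ctrl-dCas9A replicate 3, and without that control the difference was -0.79 (adjusted p = 0.044).

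The channel gene *Tomm40* was at 23, 24 and 21 against 17, 19 and 12, again without overlap (log2 fold change -0.50, SE 0.19, limma adjusted p = 0.173). The presequence receptor *Tomm20* was at 38, 54 and 32 against 33, 26 and 30, with overlap (log2 fold change -0.44, limma adjusted p = 0.261). With 1 library left out, *Tomm20* ran from -0.60 to -0.23. *Tomm40l*, a close relative of *Tomm40*, stood at 27 to 31 in the controls and 25 to 31 in Kcna1-dCas9A. *Tomm34*, which shares the name but encodes a cytosolic cochaperone, was at 34, 20 and 21 against 20, 13 and 19. *Tomm5*, a small subunit, did not exceed 3. *Tomm6*, another small subunit, was listed at 0, and its span overlaps 4 genes in RefSeq. *Tomm6os*, named as the opposite-strand transcript of *Tomm6*, was listed at 1 in 3 of the 6 libraries and at 0 in the others, with no group apart.

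The TIM23 complex, through which presequence proteins reach the peptidase, had 3 of 6 log2 fold changes above 0, 2 below and 1 at 0 (median 0.04). In limma 0 passed the threshold and 0 had an unadjusted p under 0.05, against 1.16% and 23.2% of all genes, and *Timm21* and *Timm23* did not exceed 5. *Timm17b*, a subunit of the channel and the most abundant of them, had 40, 46 and 55 in the controls and 45, 41 and 65 with the *Kcna1* guide, a log2 fold change of 0.08 (SE 0.20, limma adjusted p = 0.824). The ranges overlapped across most of their width. *Timm44*, which ties the channel to the mitochondrial Hsp70 motor, had the lowest value of the complex, -0.18 (SE 0.21, limma adjusted p = 0.573), from 22, 23 and 28 against 26, 23 and 16.

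*Timm50*, the receptor of the complex, was the one gene of the 6 whose groups did not overlap. It was listed at 24, 20 and 23 in the controls and at 30, 25 and 29 with the *Kcna1* guide, a log2 fold change of 0.31 (SE 0.14, limma adjusted p = 0.230). *Timm17a*, the other form of the Timm17 subunit, stood at 35 to 48 against 33 to 44. *Timm21*, which links TIM23 to TOM, had the highest log2 fold change, 0.33 (SE 0.33, limma adjusted p = 0.513), on values of 2, 2 and 3 against 3, 2 and 5. With 1 library left out, *Timm21* ran from 0.07 to 0.57. At 0.07, without Kcna1-dCas9A replicate 3, it was no longer the highest. *Timm23*, the gene of the channel itself, was listed at 1, 1 and 0 in each group, a level from which no difference can be read.

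The TIM22 complex, which inserts carrier proteins, held the highest log2 fold change of the import genes. *Timm10b*, a small TIM chaperone that docks on this complex, was at 33, 35 and 45 in the controls and at 47, 56 and 64 in Kcna1-dCas9A. The groups did not overlap, although Ctrl-dCas9A replicate 3 and Kcna1-dCas9A replicate 1 differ by little. The log2 fold change was 0.55 (SE 0.17, limma adjusted p = 0.107), and it was 0.68 without that control (adjusted p = 0.052). The span of *Timm10b* overlaps that of *Dnhd1* in RefSeq.

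*Timm22*, the channel of the complex and its most abundant member, had 52, 41 and 48 against 52, 56 and 59 (log2 fold change 0.24, SE 0.13, limma adjusted p = 0.272). Its groups met at a shared value of 52. *Timm29*, a metazoan subunit that connects TIM22 with TOM, went the other way by -0.45 (SE 0.26, limma adjusted p = 0.335), from 20, 26 and 13 to 12, 13 and 16. Its groups overlapped through Ctrl-dCas9A replicate 3, and without it the difference was -0.71 (adjusted p = 0.077), whereas without Ctrl-dCas9A replicate 2 it was -0.23.

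Among the small TIM chaperones, which carry hydrophobic proteins across the intermembrane space, *Timm8b* (chr9:50412006-50413425, plus strand, NCBIM37) had the lowest log2 fold change of all import genes other than *Pmpcb*. It was listed at 108, 93 and 76 in the controls and at 60, 57 and 55 in Kcna1-dCas9A. All 3 Kcna1-dCas9A values were under the lowest control, and their spread was small. The log2 fold change was -0.66 (SE 0.14, limma adjusted p = 0.056), and without Ctrl-dCas9A replicate 3 it was -0.80 (adjusted p = 0.021). The span of *Timm8b* overlaps that of *Nkapd1* in RefSeq, so reads of these genes may be shared. The same holds for *Timm13* with *Tmprss9*, *Timm29* with *Yipf2* and *Timm21* with *Fbxo15*. Spans of other genes also overlap those of *Tomm40l*, *Timm50*, *Tomm20*, *Timm23* and *Tomm6os*.

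*Timm13*, the partner of Timm8 proteins in 1 hexamer and the most abundant small TIM, had 115, 132 and 106 against 93, 109 and 81, with overlap (log2 fold change -0.32, SE 0.14, limma adjusted p = 0.226). The genes of the other hexamer, which serves the carrier route, lay around 0. *Timm9* had 49, 52 and 66 against 61, 56 and 66, the highest log2 fold change of this group at 0.14 (SE 0.14, limma adjusted p = 0.523, and 0.27 without Ctrl-dCas9A replicate 3), and *Timm10* had 55, 62 and 48 against 51, 52 and 63, with 0.0097 (SE 0.14). *Timm8a1*, the mouse counterpart of the gene of deafness-dystonia syndrome, did not exceed 3, and *Timm8a2* was listed at 0. The 3′ ends of *Timm9* and *Tomm20l* overlap on opposite strands in GENCODE vM1, and *Tomm20l* was at 0 in every library. How reads in that overlap were assigned is not given in the sources used here.

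**Figure D4:**
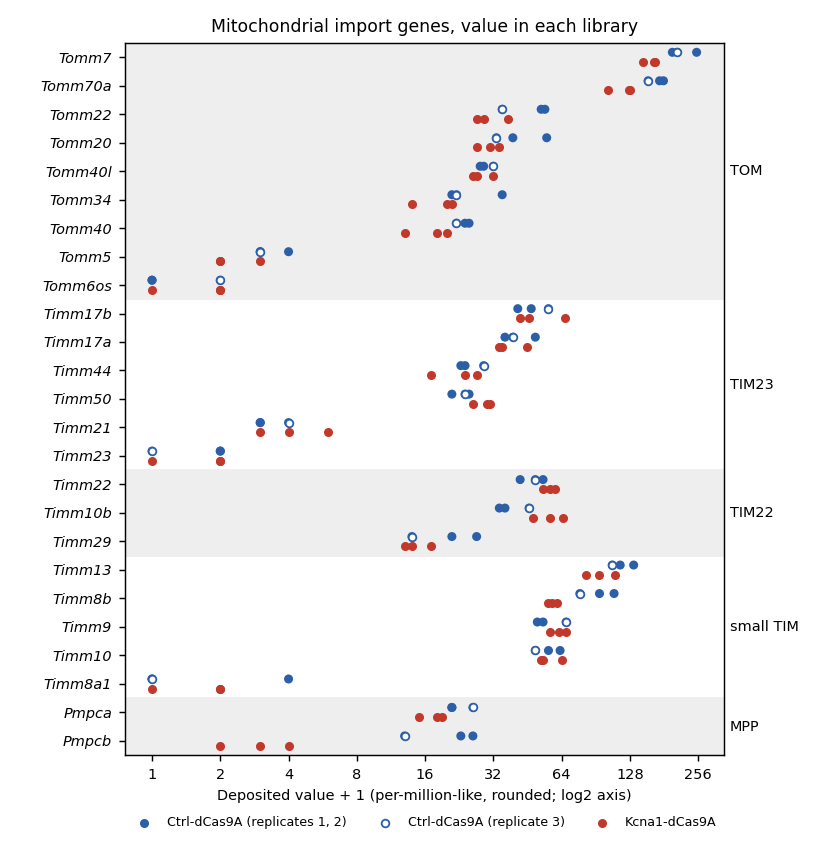
Deposited value plus 1, on a log scale, of each of the 25 import genes in each of the 6 libraries, grouped by role. *Tomm7* is at the top with 145 to 251, and 5 genes do not exceed 5 in any library.

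Summed over roles, the difference between the groups was uneven. The *Tomm* genes came to 607, 548 and 501 in the controls and to 403, 411 and 380 in Kcna1-dCas9A, without overlap. The small TIM genes came to 330, 339 and 296 against 266, 274 and 266, also without overlap. The TIM23 genes came to 137, 127 and 147 against 138, 126 and 159, and the TIM22 genes to 105, 102 and 106 against 111, 125 and 139.

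The TIM23 sums overlapped, and the TIM22 sums lay apart with Kcna1-dCas9A higher. All import genes other than *Pmpcb* together came to 1199, 1136 and 1075 in the controls and to 935, 950 and 962 in Kcna1-dCas9A. A sum is led by its most abundant members, here *Tomm7* and *Tomm70a*, and these sums were not tested.

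**Figure D5:**
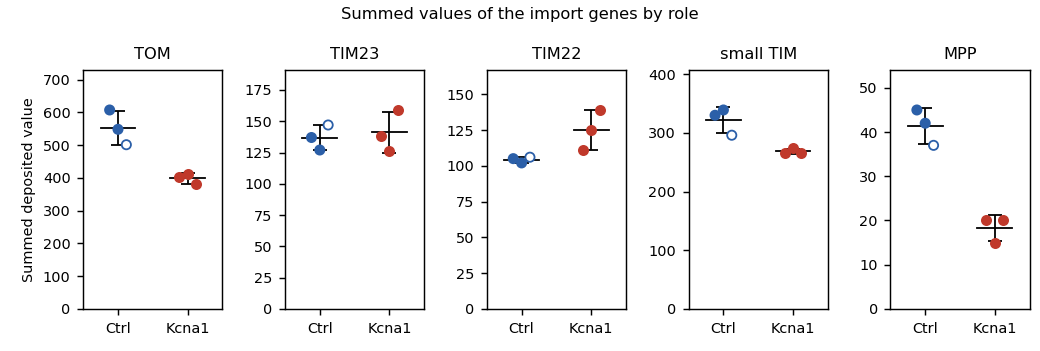
Summed deposited values of the import genes of each role in the 6 libraries, with bars at the mean ± SD of 3 libraries and axes from 0. The sums of the *Tomm* genes, drawn as TOM, are 501 to 607 in the controls and 380 to 411 in Kcna1-dCas9A, while the TIM23 sums overlap at 127 to 147 and 126 to 159.

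The kit reads 1 end of each transcript, and no source used here says whether the values were divided by length, so levels of different genes are set side by side only as deposited. In the controls *Tomm7* (218 ± 29.3) and *Tomm70a* (168 ± 13.5, SD, n = 3) led, followed by *Timm13* (118 ± 13.2) and *Timm8b* (92.3 ± 16). The ranges of the first and the second did not touch, whereas *Timm13* at 106 to 132 and *Timm8b* at 76 to 108 did. From *Timm9* (55.7 ± 9.07) down to *Timm29* (19.7 ± 6.51) neighbouring genes overlapped in range, except *Timm10b* at 33 to 45 and *Tomm40l* at 27 to 31. *Pmpcb* stood near the end of that run beside *Pmpca* (21.7 ± 2.89), at percentile 68.2 of the control means of all genes, and 5 import genes were lower.

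The wider import pathway was read from 11 lists of 63 genes, chosen by function, of which 62 were above 0 and *Fgf21* was at 0. In limma 0 of the 62 passed the threshold, with 9 higher and 14 lower at an unadjusted p under 0.05, against 9.59% and 13.6% of all genes. The median log2 fold change was -0.12, and it was -0.034 and -0.0054 under the median of ratios and the upper quartile. The groups did not overlap for 8 higher and 13 lower genes, against 8.98% and 13.3% of all genes. Without Ctrl-dCas9A replicate 3, 5 passed as higher and 8 as lower, against 6.06% and 8.12% of all genes.

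At the outer membrane, *Mtx2*, which encodes a partner of the sorting machinery for barrel proteins, had the lowest log2 fold change of the lists. It was listed at 24, 26 and 15 in the controls and at 7, 7 and 11 in Kcna1-dCas9A, without overlap (log2 fold change -1.27, SE 0.27, limma adjusted p = 0.056, and -1.5 with adjusted p = 0.029 without Ctrl-dCas9A replicate 3). *Mtch1*, a relative of the outer membrane insertase gene *Mtch2*, was higher in each Kcna1-dCas9A library, with 316, 385 and 536 against 635, 596 and 587 (log2 fold change 0.59, SE 0.18, limma adjusted p = 0.113, and 0.023 without that control). In this list 4 of 6 genes were above 0 in log2 fold change.

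Of the motor that pulls presequence proteins into the matrix, 5 of 7 genes were below 0 in log2 fold change. *Grpel2*, a nucleotide exchange factor of mitochondrial Hsp70, had 24, 22 and 18 against 13, 14 and 12 (log2 fold change -0.67, SE 0.16, limma adjusted p = 0.065, and 0.029 without Ctrl-dCas9A replicate 3). *Dnajc15*, a J protein of the channel, went the other way, with 12, 7 and 10 against 17, 13 and 15 (log2 fold change 0.61, SE 0.23, limma adjusted p = 0.162). Named after its values were seen, the Hsp70 gene *Hspa9* itself had 178, 164 and 121 against 110, 111 and 99, without overlap (log2 fold change -0.51, SE 0.15, limma adjusted p = 0.104, and -0.68 with adjusted p = 0.021 without Ctrl-dCas9A replicate 3).

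The genes that act after the peptidase, the intermediate peptidases and the presequence degrading enzyme *Pitrm1*, were at low values. *Immp1l*, a subunit of the inner membrane peptidase, had 20, 32 and 14 against 12, 11 and 12 (log2 fold change -0.79, SE 0.28, limma adjusted p = 0.149, and -1.06 with adjusted p = 0.047 without Ctrl-dCas9A replicate 3, but -0.49 without Ctrl-dCas9A replicate 2), and *Pitrm1* was at 10 to 15 against 9 to 15. The quality control proteases had 9 of 9 log2 fold changes below 0, where 9896 of all 19504 genes did. The count was 8 without Ctrl-dCas9A replicate 3 and 8 and 7 under the median of ratios and the upper quartile, where *Yme1l1* turned from -0.05 to 0.035 and 0.065. *Htra2*, a serine protease of the intermembrane space, was the lowest of them, with 16, 15 and 13 against 6, 7 and 8 and no overlap (log2 fold change -0.97, SE 0.18, limma adjusted p = 0.053, and 0.029 without Ctrl-dCas9A replicate 3).

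*Nrd1*, one of the M16 peptidases related to both processing peptidase subunits, was at 116, 109 and 197 against 223, 230 and 244. The groups did not overlap, and Ctrl-dCas9A replicate 3 stood near the Kcna1-dCas9A values (log2 fold change 0.77, SE 0.22, limma adjusted p = 0.091, and 1.04 with adjusted p = 0.017 without it). *Uqcrc2*, a core subunit of respiratory complex III from the same family, had 134, 125 and 106 against 106, 100 and 93 (log2 fold change -0.28, SE 0.12, limma adjusted p = 0.208). Among known clients of the peptidase and mitophagy genes, *Pink1*, whose product is cut during import, was at 33 to 37 against 29 to 44, and *Pgam5*, a mitochondrial phosphatase, had 51, 38 and 35 against 27, 30 and 22 (log2 fold change -0.62, SE 0.19, limma adjusted p = 0.102).

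The integrated stress response, which cells are known to raise when mitochondrial function is impaired, had 7 of 11 log2 fold changes above 0 and 3 below, with a median of 0.37. Without Ctrl-dCas9A replicate 3 that median was 0.15. In limma 0 passed the threshold and 5 were higher at an unadjusted p under 0.05, against 9.59% of all genes. Without Ctrl-dCas9A replicate 3, 3 passed as higher, against 6.06% of all genes, and 3 and 5 did under the median of ratios and the upper quartile, against 4.94% and 6.29%. *Ddit3*, a transcription factor of this response, was at 22, 25 and 50 against 62, 47 and 71, with overlap through Ctrl-dCas9A replicate 3 (log2 fold change 0.95, SE 0.31, limma adjusted p = 0.129, and 1.30 with adjusted p = 0.030 without it). *Atf4*, its central factor, named after its values were seen, had 305, 311 and 471 against 492, 503 and 588 (log2 fold change 0.57, SE 0.18, limma adjusted p = 0.117, and 0.77 with adjusted p = 0.021 without Ctrl-dCas9A replicate 3). *Psat1*, an enzyme of serine synthesis, lay the other way at -0.26 (limma adjusted p = 0.271), and from -0.36 to -0.15 with 1 library left out. *Asns*, also named after its values were seen, was at 31, 21 and 21 against 25, 21 and 26. Its log2 fold change was -0.0014, and ran from -0.091 to 0.18 with 1 library left out.

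Of the remaining lists, the intermembrane space relay ran from *Aifm1* at -0.29 to *Gfer* at 0.39, inner membrane insertion from *Oxa1l* at -0.45 to *Cox18* at 0.26, and the matrix chaperones from *Hspd1* at -0.34 (-0.18 without Ctrl-dCas9A replicate 3) to *Trap1* at 0.21, in log2 fold change. With 1 library left out, *Aifm1* ran from -0.37 to -0.17, *Gfer* from 0.18 to 0.59 and *Cox18* from 0.17 to 0.46. In MICOS, which shapes the cristae, *Minos1* was at -0.51 (SE 0.22, limma adjusted p = 0.224) and *Chchd6* at 0.51 (SE 0.20, limma adjusted p = 0.175). With 1 library left out, *Minos1* ran from -0.74 to -0.33 and *Chchd6* from 0.31 to 0.64. None of these 8 genes passed the threshold in limma. *Minos1* and *Oxa1l* did so without Ctrl-dCas9A replicate 3 (adjusted p = 0.049 and 0.042).

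Marker lists of the cell types that these cultures could hold were summed in each library, and their calls stand against 0.810% of all genes past the threshold as lower and 0.349% as higher. Over 8 astrocyte markers the summed value was 920 to 1026 in the controls and 661 to 688 in Kcna1-dCas9A, and *Aqp4*, *Aldoc* and *Sox9* passed as lower, while *Gfap* was at 45 to 63 against 46 to 70 and *S100b* at 3 to 8 against 6 to 9. The oligodendrocyte lineage summed to 66 to 98 against 40 to 44 with *Olig2* the 1 of 7 to pass, as lower, and *Mog* at 0, while *Mbp* lay the other way at 3, 3 and 2 against 7, 4 and 7 (limma adjusted p = 0.113). The 6 markers of dividing cells summed to 93 to 101 against 60 to 63, with 0 past the threshold in limma and 5 lower at an unadjusted p under 0.05, against 13.6% of all genes. Microglial markers summed to 22 to 25 against 53 to 72, where *C1qa* passed as higher, *C1qc* was at 1 to 2 in both groups, and *Tmem119* and *P2ry12* were at 0.

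Endothelial and mural markers summed to 10 to 14 against 6 to 8, with *Cdh5* at 0 and 0 past the threshold or at an unadjusted p under 0.05 in limma. Neuronal markers summed to 4186 to 4925 against 5311 to 6719, although 5 of the 8 had negative log2 fold changes and their median was -0.02. In that sum *Tubb3*, a neuronal tubulin, was at 1862, 1752 and 2605 against 3855, 3221 and 4591. Hippocampal markers summed to 1946 to 2096 against 1720 to 2002 and cortical markers to 161 to 162 against 162 to 167. Without Ctrl-dCas9A replicate 3, 5 astrocyte, 2 oligodendrocyte lineage, 2 neuronal and 2 hippocampal markers passed as lower, against 8.12% of all genes, and 2 microglial, 2 neuronal and 1 cortical marker as higher, against 6.06%. Under either scaling, 4 microglial and 2 neuronal markers passed as higher, with 1 cortical marker added under the upper quartile, against 4.94% and 6.29% of all genes. There, 5 astrocyte, 2 oligodendrocyte lineage, 1 neuronal and 1 dividing-cell marker passed as lower, against 3.89% and 4.27% of all genes. The part of these differences in the values of the import genes was not tested, and in bulk RNA fewer cells of a type and less RNA per cell cannot be told apart.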

How the data were processed

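Gene expression was measured in 3 Ctrl-dCas9A and 3 Kcna1-dCas9A libraries, grouped by their labels. The authors deposited a score per gene, a whole number with nearly equal library sums, so it was read as a scaled and rounded value and no count test was run. For the cultured neurons the study names Bowtie2 and NCBI37/mm9, and for its in vivo libraries it names STAR 2.7 and mm10. The submitters' processing notes list STAR 2.7, featureCounts and mm10. Which aligner and genome were used for the 6 libraries here was not resolved. Whether counting used strand is not given in the sources used here. Values of the 19504 genes above 0 were compared as log2(value + 1) with limma 3.58.1 in R 4.3.3 (intensity trend, group as the only factor, Benjamini-Hochberg over all genes, threshold 0.05), after a test on simulated data. Tables and motif searches were made in Python 3.11.15.

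The import genes, the functional lists and the marker lists were chosen with earlier results of these data known. *Kcna1* and every import gene are named. In full are *Pmpcb*, *Pmpca* and, per role, the most abundant, highest and lowest genes. Each functional list gives its highest and lowest gene with a mean of at least 10, and the 2 nearest genes above 0 on each side of *Pmpcb* are added, which passes over Gm15719. *Tomm20*, *Tomm34*, *Tomm40*, *Tomm70a*, *Timm10*, *Timm23*, *Timm50*, *Hspa9*, *Atf4*, *Asns*, markers, Gm15715 and Gm15719 fall outside that rule for full values. Older symbols matched 3 list genes. Alternatives were other pseudocounts, low-value filters, scalings, variance models, the replicate block, removal of Gm42418 and each library left out.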

Additional observations from a re-analysis of the deposited data

How the results depend on the processing

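The count of all genes past the threshold, 226 (68 higher, 158 lower), depended on the processing. It was 627 with a pseudocount of 0.1, 455 with 4, 1543 of 13604 at a mean of at least 1, 1946 of 7048 where every library had at least 10, 2884 with robust variance and 1768 without Gm42418. Median-of-ratios factors gave 1721 (963 higher, 758 lower) and upper-quartile factors 2058 (1226 higher, 832 lower), so that more calls were higher than lower, as also among the 201 without the intensity trend (117 higher, 84 lower). For the import genes other than *Pmpcb* the count of 0 became 3 of 21 at a mean of at least 1, 5 of 19 at 10 in every library, 2 under either scaling, 5 with robust variance and 3 without Gm42418. For the pathway lists it became 2 with a pseudocount of 0.1, then 5 of 61, 11 of 40, 7, 10, 16 and 7 for a mean of at least 1, 10 in every library, median of ratios, upper quartile, robust variance and no Gm42418. These counts are to be read against the counts over all genes at the same setting, out of 19504 where no filter was set (19503 without Gm42418).

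Leaving out 1 library at a time gave 0 to 2711 genes in all, 0 to 3 import genes and 0 to 13 pathway genes, with the highest counts only without Ctrl-dCas9A replicate 3. The log2 fold change of *Pmpcb* ran from -3.08 to -2.52, and was -1.95 with a pseudocount of 4. *Pmpcb* has no value under the filter of 10 in every library. With 1 library left out, *Kcna1* ran from 1.73 to 1.99 and passed only when that library was Ctrl-dCas9A replicate 3.

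Replicate numbers are shared by both groups, and no label says that they mark a shared culture or day. Same-numbered libraries correlated at 0.014 to 0.154 in their deviations from the group mean and others at -0.156 to 0.099. Of the 6, 5 correlated best with their own number. Deviations within a group are tied to one another, so these outcomes are not independent and give only a hint of pairing. Since not every pair passed 0.1, the numbers were not taken as a pairing. With the replicate block, 0 genes passed over all genes, import genes and pathway lists, and *Kcna1* was at 1.83 without passing.

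Small log2 fold changes turned sign. *Tomm40l* became 0.015 and 0.045, *Yme1l1* 0.035 and 0.065 and *Pink1* 0.079 and 0.11 under the median of ratios and the upper quartile, and *Timm10* became -0.0076 without Gm42418. With 1 library left out, *Timm17a* ran from -0.25 to 0.0085, *Timm44* from -0.32 to 0.014, *Timm10* from -0.086 to 0.098, *Timm17b* from -0.12 to 0.21, *Napepld* from -0.63 to 0.17, *Pitrm1* from -0.13 to 0.21, *Yme1l1* from -0.19 to 0.030 and *Pink1* from -0.17 to 0.12. The causes were not tested. The unknown depth limits what values under about 10 can show.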
